A study of Caenorhabditis elegans with 4 samples.

Results

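The let-7 family is a group of small regulatory RNAs that share the bases of the let-7 seed, the stretch near the 5′ end through which a miRNA recognises its target mRNAs. Its members were taken by name from the deposited table of miRNAs, as every row derived from the hairpins cel-let-7, cel-miR-48, cel-miR-84, cel-miR-241, cel-miR-793, cel-miR-794 and cel-miR-795. These 7 hairpins accounted for 12 of the 205 mature miRNAs in the table, which came from 132 hairpins in all. Both arms of the hairpin were listed for let-7, miR-48, miR-84, miR-241 and miR-795. Only the 5p arm was listed for miR-794, and miR-793 was listed once without an arm.

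Small RNA was sequenced from whole wild-type *C. elegans* of the N2 strain, grown to L4, the last larval stage. Heat shocked animals (HS, 2 libraries) were then exposed to 35°C before collection, and control animals (CTRL, 2 libraries) were kept at 20°C. The sample characteristics give 4 h and the treatment protocol 6 h for the HS exposure. For each miRNA the table holds one level, the authors' mean over all 4 libraries of read counts corrected for library size (mean normalized count), and the authors' own fold change of HS over CTRL with its adjusted p-value. These comparison columns were not used, so HS and CTRL were not compared here. Every value below describes HS and CTRL together, with no SD and no test. The depth of each library is unknown, so no counting interval could be given either.

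In *C. elegans* the let-7 family acts in the heterochronic pathway, which sets the order of cell fates in larval development. let-7 promotes the change from larval to adult fates in the skin, mainly by repressing *lin-41*. miR-48, miR-84 and miR-241 act earlier and together to repress *hbl-1*, and the RNA-binding protein LIN-28 blocks the processing of let-7 in young larvae. The lin-4 family, made up of lin-4 and miR-237, belongs to the same pathway, and lin-4 represses *lin-14* and *lin-28*.

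The family was unevenly expressed, and miR-48 led it. miR-48-5p had a mean normalized count of 183674 and was the 14th most abundant of the 205 miRNAs. It was 3.37-fold above let-7-5p, the next member, which had 54562 mean normalized counts (rank 26). miR-84-5p followed at 52209 mean normalized counts (rank 28). let-7-5p exceeded miR-84-5p by a factor of 1.05, and without a spread between libraries these 2 neighbours cannot be ordered. Together the 5p arms of miR-48, let-7 and miR-84 held 89.9% of the summed level of the family.

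The remaining members were present at lower levels. miR-241-5p had 10734 mean normalized counts (rank 52), 4.86-fold less than miR-84-5p. miR-793 had 8972 mean normalized counts (rank 56), so miR-241-5p stood above it by a factor of only 1.20. miR-795-5p and miR-794-5p came last among the more abundant arms. Their mean normalized counts were 2671 for miR-795-5p (rank 88) and 2006 for miR-794-5p (rank 91), a ratio of 1.33. Across these 7 hairpins the more abundant or only listed arm spanned a 91.6-fold range.

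**Figure D1:**
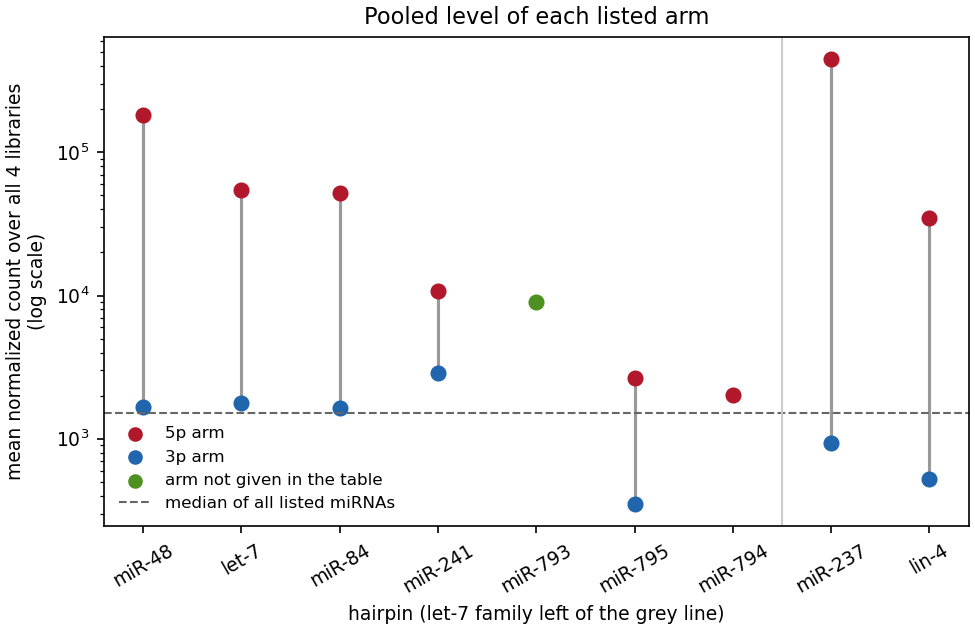
Mean normalized count over all 4 libraries (log axis) of each listed arm of the 7 let-7 family hairpins and, right of the grey line, of miR-237 and lin-4. Each point is one pooled value without an error, lines join the arms of a hairpin, and the dashed line is the median of all 205 miRNAs (1512). The 5p arms of the let-7 family range from 2006 (miR-794) to 183674 (miR-48), whereas the 3p arms of let-7, miR-48 and miR-84 lie close together near the median.

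The 3p arms showed a different picture. In the 5 hairpins with both arms listed, the 5p arm had the higher level. By earlier knowledge, the 5p arm of these 5 hairpins carries the let-7 seed and is loaded as the guide into Argonaute. This does not cover miR-793, for which the only annotated mature product lies on the 3p side. The other arm, the passenger, is largely discarded. Neither seeds nor loading were measured here. let-7-3p had 1778 mean normalized counts (rank 95), miR-48-3p had 1668 (rank 99) and miR-84-3p had 1644 (rank 100). The highest of these 3 passenger arms exceeded the lowest by a factor of 1.08, whereas their 5p arms differed by up to 3.52-fold. miR-241-3p was the most abundant passenger of the family, at 2887 mean normalized counts (rank 83), although its 5p arm was the weakest of the *hbl-1* regulators. miR-795-3p was the least abundant member at 349.8 mean normalized counts (rank 155). It was the only one of the 12 members under the median of the table.

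Set against the rest of the table, the family lay towards the upper part but did not hold an outsized share. Its 12 members made up 5.85% of the listed miRNAs and 3.27% of the summed level, at 323155 of 9890693 mean normalized counts. Of the members, 11 of 12 were above the median of 1512, compared with 91 (47.2%) of the other 193 miRNAs. The median over the 7 guide or singly listed members was 10734 mean normalized counts, compared with 3788 over the 125 such miRNAs outside the family. The median over the 5 passenger arms was 1668 mean normalized counts, compared with 439.5 over the 68 other passengers. Guide here means the arm with the higher pooled level, so these medians depend on the same values that set the roles.

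**Figure D2:**
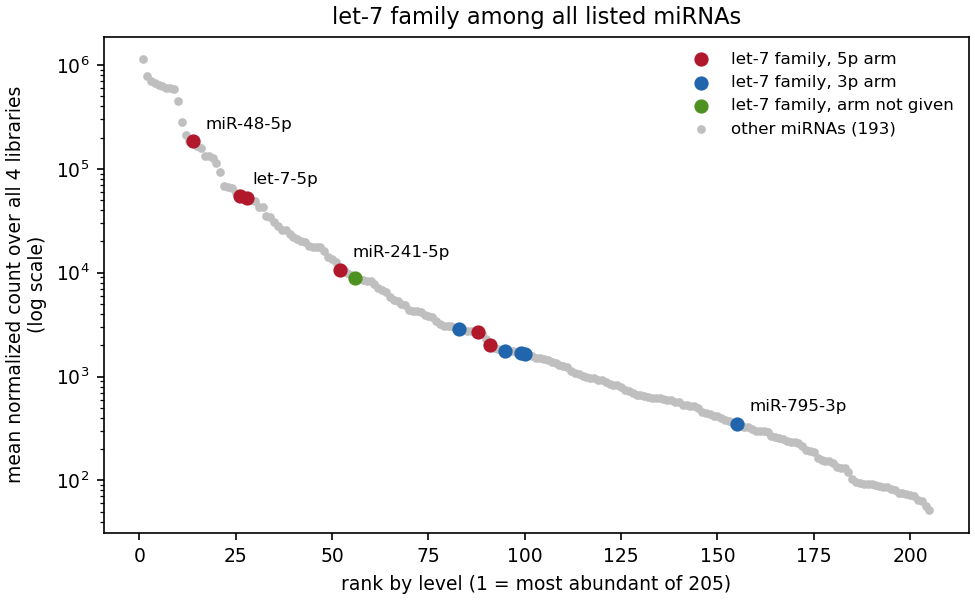
Mean normalized count over all 4 libraries (log axis) of all 205 miRNAs by rank, with the 12 let-7 family members in colour by arm and the 193 others in grey. miR-48-5p stands at rank 14, let-7-5p and miR-84-5p at ranks 26 and 28, and only miR-795-3p (rank 155) lies in the lower part of the curve.

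The balance between arms was next compared among hairpins. The 5p arm exceeded the 3p arm by 110-fold in miR-48, 31.7-fold in miR-84 and 30.7-fold in let-7. The ratio was 7.64 in miR-795 and 3.72 in miR-241. Over the 73 hairpins with both arms listed, the ratio of the more to the less abundant arm ran from 1.01 to 4263, with a median of 20.8. miR-48, miR-84 and let-7 were thus above the median, at positions 24, 34 and 35, and miR-795 and miR-241 below it, at positions 44 and 57. Over the 61 hairpins whose guide had at least 1000 mean normalized counts the median was 42.5, with miR-48 above it and miR-84 and let-7 below it. No ratio could be formed for the 59 miRNAs listed without a partner arm, such as miR-57-5p at 665208 mean normalized counts. The lowest listed level was 51.5 mean normalized counts, which limits the ratio that a hairpin with a weak guide can reach. Positions and medians therefore depend on which arms were listed. In the ordering of ratios miR-48 stood between miR-246 (111-fold) and miR-37 (71.7-fold). miR-84 and let-7 were adjacent, between miR-80 (40.1-fold) and miR-250 (27.2-fold). miR-795 stood between miR-786 (8.80-fold) and miR-77 (7.54-fold), and miR-241 between miR-46 (3.92-fold) and miR-239a (3.15-fold). More 5p than 3p product was seen in 5 of 5 let-7 family hairpins, compared with 24 (35.3%) of the 68 other hairpins, and the 3p arm led in the other 44. The family is defined by a shared seed, placed on the 5p arm of these 5 hairpins by earlier knowledge. Its 5 hairpins are therefore not independent cases, and the contrast partly follows from membership. A ratio of pooled levels weights each library by its own level and can differ from the ratio in either condition. Ligation and amplification also favour some sequences over others, which limits comparisons of level between different miRNAs.

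**Figure D3:**
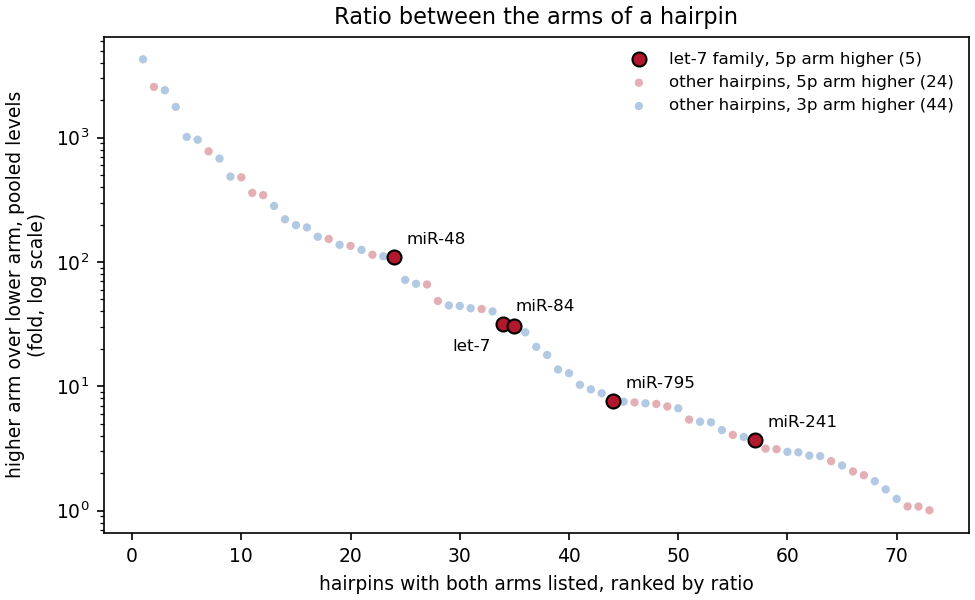
Ratio of the more abundant to the less abundant arm (fold, log axis) for the 73 hairpins with both arms listed, ranked from highest to lowest and coloured by which arm was higher. Outlined points are the 5 let-7 family hairpins, which all have the higher 5p arm and range from 3.72 (miR-241) to 110 (miR-48), and pale points are the 68 others.

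The genes were then located in the Ensembl annotation of WBcel235, and none of the 7 hairpins overlapped a protein-coding gene. miR-48 and miR-241 are neighbours on the minus strand of chromosome V. The miR-48 hairpin spans 14364412 to 14364509 and that of miR-241 spans 14366188 to 14366283, with 1678 bp between them and *unc-39* as the next protein-coding gene on one side and Y49A3A.4 on the other. Despite this proximity the level of miR-48-5p was 17.1-fold that of miR-241-5p, while miR-241-3p was 1.73-fold above miR-48-3p. The pair contributed 61.6% of the summed level of the family.

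miR-794 and miR-795 form another pair, on the plus strand of chromosome I. The miR-795 hairpin lies at 12594569 to 12594657 and that of miR-794 at 12595690 to 12595773, with 1032 bp between them. Both were weak, and the pair gave 1.56% of the summed level of the family. The other hairpins are spread over chromosome X, each without another annotated hairpin within 10000 bp. let-7 lies at 14744173 to 14744271 on the minus strand, 392 bp from C05G5.7. miR-84 lies at 16022404 to 16022478 on the minus strand, 648 bp from the sodium-proton exchanger gene *nhx-1*. miR-793 lies at 13857962 to 13858053 on the plus strand, between *mct-3* (646 bp away) and M03B6.4 (787 bp away). These 3 hairpins together held 36.9% of the summed level of the family.

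The annotated hairpins were 75 to 99 bp long, with miR-84 the shortest and let-7 the longest. The annotated 5p arms ran from 21 nt in miR-241 to 24 nt in miR-84 and miR-795, and the 3p arms were 22 or 23 nt. let-7-5p spans 14744234 to 14744255 (22 nt) and let-7-3p 14744191 to 14744212 (22 nt). miR-48-5p spans 14364472 to 14364494 (23 nt). For miR-793 the annotation gives a mature product on the 3p side alone (13858017 to 13858038). The level of miR-793 was listed without an arm and was not assigned to one here. As each small RNA is read over its whole length, levels were not divided by length.

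The lin-4 family served as the reference within the same pathway. miR-48-5p, the leading let-7 family member at 183674 mean normalized counts, was below miR-237-5p at 448859 (rank 10), and the level of miR-237-5p was 2.44 times that of miR-48-5p. let-7-5p was 1.58-fold above lin-4-5p, which had 34550 mean normalized counts (rank 34). Of the passenger arms, let-7-3p, miR-48-3p, miR-84-3p and miR-241-3p, at 1644 mean normalized counts or more, were above miR-237-3p at 936.1 (rank 119) and lin-4-3p at 523.6 (rank 143), and miR-795-3p at 349.8 was below both. The let-7 family summed to 323155 mean normalized counts and the 4 listed arms of lin-4 and miR-237 to 484868, of which miR-237 gave 449795. The sum over lin-4 and miR-237 was thus 1.50 times that of the let-7 family. Both of these hairpins gave more 5p than 3p product, as did those of the let-7 family.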

How the data were processed

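The authors extracted total RNA with Trizol, prepared TruSeq small RNA libraries from 2 biological replicates each of HS and CTRL animals, mapped reads to *C. elegans* miRNAs and analysed them in DESeq2. The aligner for miRNAs, the miRNA reference, the treatment of reads that match several family members and any filter on weak miRNAs are not given in the sources used here, so levels of closely related members are uncertain. The deposited level is a signal per miRNA, counts scaled by size factors and then averaged across the 4 libraries. This removes differences in depth between libraries but mixes HS and CTRL. The other columns hold the authors' log2 fold change of HS over CTRL and its adjusted p-value, and were not used. Per-library values were not analysed here, so depth is unknown and the precision of each level could not be given.

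Members, and the lists of named miRNAs, were chosen with earlier results of these data known. Named were all let-7 family members, lin-4 and miR-237, and the hairpins adjacent to a member in the order of arm ratios. Ranks, shares and arm ratios were computed in Python 3.11.15 with pandas 2.3.3 and checked on simulated data. The arm with the higher level was taken as the guide. Hairpins were located by RefSeq locus tag in the Ensembl release 115 annotation (WBcel235). Mature sequences were not used here, so no seeds were compared.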

Additional observations from a re-analysis of the deposited data

How the results depend on the processing

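The levels have no known spread against which a change could be judged. The share of the summed level held by the let-7 family was 3.27% over all listed miRNAs, 3.23% over guide and singly listed arms, 3.69% without miR-82-3p, the most abundant miRNA, and 3.27% over the 115 miRNAs with at least 1000 mean normalized counts. The median arm ratio depended more on the choice of hairpins. It was 20.8 over all 73 hairpins and 42.5 over the 61 whose guide had at least 1000 mean normalized counts, which put miR-84 and let-7 below the median instead of above it. The percentage of hairpins with a lower ratio fell with this restriction for each of the 5 family hairpins, by at most 9.43 percentage points. It was 60.7% against 67.1% over all hairpins for miR-48, 44.3% against 53.4% for miR-84, 42.6% against 52.1% for let-7, 31.1% against 39.7% for miR-795 and 13.1% against 21.9% for miR-241. Leaving passenger arms out of the ranking cannot change the order of the members that remain, so their order was not tested by it. It moved 4 of 7 ranks. miR-241-5p then ranked 48 instead of 52, miR-793 ranked 51 instead of 56, miR-795-5p ranked 74 instead of 88 and miR-794-5p ranked 75 instead of 91.

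No paired analysis was possible because the level of each miRNA is pooled over all libraries. For the same reason a fit of HS against CTRL, with count models, other normalizations and the omission of single libraries, was not run. The table does hold the authors' own fold changes and adjusted p-values for HS against CTRL, which were not used here. The planned order of seed families was not run, since it needs mature sequences.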
